A study of Mus musculus with 8 samples.

Results

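Dhrs9 and 9 aldo-keto reductases of the Akr1b and Akr1c families were followed in mouse Hepa-1 cells exposed to hexavalent chromium, Cr(VI). The 10 genes were taken by symbol from the 23403 genes of the RNA-seq count table. Dhrs9 and Akr1c18 were chosen by their measured falls in the comparison of treated and control cells, so their changes are given as a description with no test. The other 8 genes, Akr1c6, Akr1c12, Akr1c13, Akr1c14, Akr1c19, Akr1b3, Akr1b7 and Akr1b8, entered as relatives of Akr1c18 in the same enzyme superfamily and not by their values.

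Hepa-1 (Hepa-1c1c7) is an established mouse hepatoma cell line, a culture of liver tumor cells. RNA-seq measured 2 libraries of Hepa-1 cells given 25 µM Cr(VI) as CrK2O4 in the medium for 90 minutes and 2 libraries of control Hepa-1 cells, all grown in serum-containing medium. The labels do not say whether those controls belonged to the 90-minute exposure or to a 20-passage culture without chromium. FAIRE-seq, which sequences DNA that is not crosslinked to histones, covered 1 library of the 25 µM exposure, 1 of cells grown for 20 passages in 0.5 µM Cr(VI), and 1 control for each. RNA-seq of the 0.5 µM culture was not analysed here. No label says that libraries of a group came from separate cultures, so p-values measure only the spread between these libraries, which may be technical.

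Aldo-keto reductases are cytosolic enzymes that use NADPH to reduce aldehydes and ketones, among them sugars, steroids, prostaglandins and products of lipid peroxidation. The mouse Akr1c enzymes act mostly on hydroxysteroids and the Akr1b enzymes on sugars and reactive aldehydes. Dhrs9 belongs to a separate family, the short-chain dehydrogenases, and oxidizes retinol to retinal, a reversible step on the way to retinoic acid, as well as some hydroxysteroids. In liver, where most vitamin A is stored and steroid hormones are cleared, enzymes of both families are part of the usual metabolic equipment.

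RNA-seq libraries held 32319676 to 37696116 counts, and 13619 genes had enough counts to be tested. The treated pair differed more than the control pair: 1404 tested genes were over 2-fold apart between the treated libraries, against 83 between the controls. Of 18 hepatocyte and hepatoma markers, 10 were at 1 CPM (counts scaled to a common library size) or more on average in control cells. Alb (albumin), Afp and Krt18 were abundant, while Apoa1 had no counts in either control and Hnf4a stood below 1 CPM in every library. Of 15 markers of leukocytes, endothelium, stroma and bile ducts, 6 were at 1 CPM or more on average in control cells, namely Col1a1 at 205, Krt19 at 79.6, Csf1r at 49.9, Pdgfrb at 47.2, Acta2 at 8.68 and Cd68 at 8.03 CPM, while Cd3e and Cdh5 were at 0 in every library. In bulk RNA, fewer cells of a kind and less RNA per cell cannot be told apart.

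Dhrs9 (chr2:69380462-69403086, plus strand, mm10, 5 exons) lost nearly all its reads in treated cells. The gene drew 7 and 4 reads in the treated libraries against 287 and 359 in the controls. The normalized level was 0.207 and 0.138 CPM in treated cells and 8.26 and 9.18 CPM in control cells. Both treated libraries lay far below both controls, and a level of 0.173 ± 0.0486 CPM (SD, n = 2) stood against 8.72 ± 0.655 CPM (SD, n = 2). The treated mean was 1.98% of the control mean. The ratio of control to treated was 50.5, and between single libraries it ran from 39.9 to 66.5. On the log2 scale the fitted difference, treated minus control, was -5.61 (standard error 0.30). That error was back-calculated from edgeR's test statistic. With 7 and 4 treated reads it may understate the counting error. The treated counts were above the floor of 3 counts per library.

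Akr1c18 (chr13:4132615-4150646, minus strand, 9 exons), the 20-alpha-hydroxysteroid dehydrogenase that inactivates progesterone, was low in the same libraries. It drew 12 and 14 reads in treated cells against 255 and 311 in controls. The normalized level was 0.355 and 0.483 CPM in treated cells and 7.33 and 7.95 CPM in control cells, again with no overlap. Means were 0.419 ± 0.091 CPM (SD, n = 2) in treated and 7.64 ± 0.438 CPM (SD, n = 2) in control cells. The treated mean was 5.48% of the control mean, and the log2 difference was -4.19 (standard error 0.27, back-calculated as for Dhrs9). Control libraries exceeded treated ones 18.2-fold on average and 15.2-fold to 22.4-fold library by library.

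Ordered by log2 difference, among tested genes with an average of at least 2 log2 CPM and no overlap between groups, Dhrs9 stood lowest and Akr1c18 came in the fifth place. The genes ranked beside Akr1c18 were Sprr2h just above, at a log2 difference of -4.22, and Ifi44 just below, at -4.11. These ranks describe how both genes were picked and carry no test. In all, 2.85% of the 13619 tested genes were called lower and 4.63% were called in either direction.

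**Figure D1:**
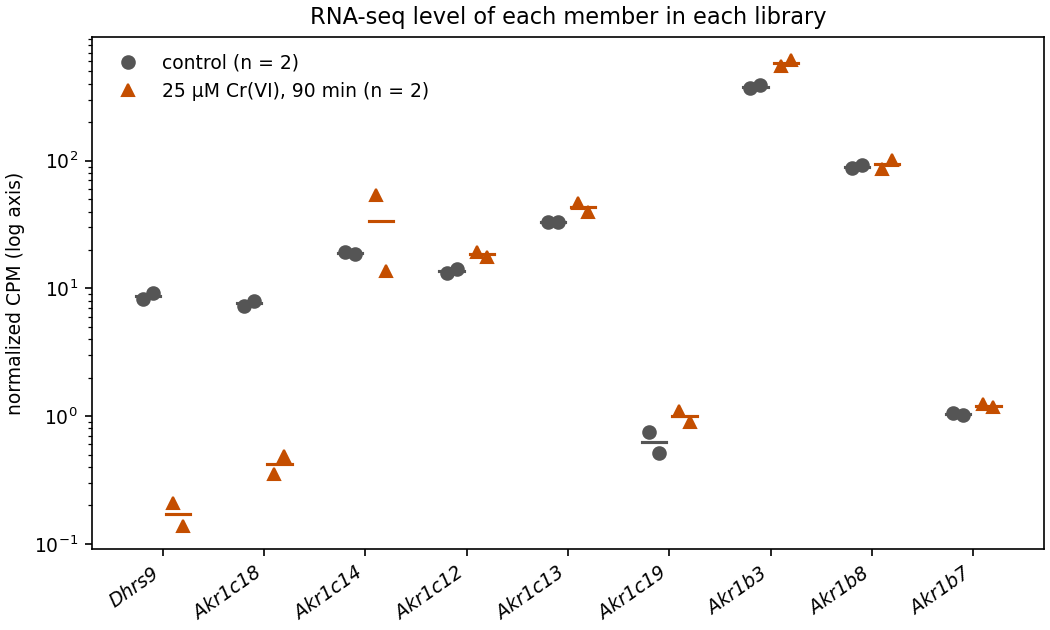
Normalized CPM on a log axis for 9 members in each of the 4 RNA-seq libraries, with points for libraries and short lines for group means. Dhrs9 and Akr1c18 lie more than 15-fold lower in both treated libraries, the 2 treated libraries of Akr1c14 straddle the controls, and Akr1c6 is not drawn because it had 2 reads in 1 library and none in the others.

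The promoter is shown for both genes with the large falls, because AP-1 binding sequences were a question of the chromatin part of the study. Each sequence holds the 250 bases before the RefSeq start (mm10), written 5′ to 3′ in lower case, with matches to the AP-1 letters TGANTCA in capitals.
Dhrs9 promoter (chr2:69380212-69380461, plus strand): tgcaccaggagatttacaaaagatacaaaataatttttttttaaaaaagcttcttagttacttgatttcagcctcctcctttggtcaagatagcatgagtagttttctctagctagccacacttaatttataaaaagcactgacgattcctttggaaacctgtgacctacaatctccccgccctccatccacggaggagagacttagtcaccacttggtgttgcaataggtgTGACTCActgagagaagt
Akr1c18 promoter (chr13:4150647-4150896, minus strand): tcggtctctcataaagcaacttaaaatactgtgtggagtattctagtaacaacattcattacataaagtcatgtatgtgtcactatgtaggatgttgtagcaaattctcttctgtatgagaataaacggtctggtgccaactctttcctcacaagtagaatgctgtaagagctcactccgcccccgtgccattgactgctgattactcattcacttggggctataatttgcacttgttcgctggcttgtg
Searched on both strands, the AP-1 letters occurred once in the Dhrs9 promoter, 18 bases before the start on the plus strand, and not in the Akr1c18 promoter. They occurred in 6.75% of 32851 RefSeq promoters of the same length. The antioxidant response element letters TGACNNNGC, which can overlap an AP-1 match, occurred in neither promoter and in 10.2% of all promoters. In the other 7 members with a promoter entry, Akr1c6, Akr1c12, Akr1c13, Akr1c14, Akr1c19, Akr1b7 and Akr1b8, neither set of letters was found. A match is a description of letters and does not show binding.

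Of the other tested Akr1c genes none was below the controls in both treated libraries, and all lie with Akr1c18 in a cluster of 408.5 kb on chromosome 13. In order along the chromosome the members are Akr1c14, Akr1c18, Akr1c13, Akr1c19, Akr1c12 and Akr1c6. Akr1c14, a 3-alpha-hydroxysteroid dehydrogenase, measured 53.5 and 13.7 CPM in treated cells and 19.3 and 18.5 CPM in controls. One treated library was above both controls and the other below both, 3.91-fold apart from each other. Only 1.23% of tested genes were as far apart between the treated libraries. The log2 difference of 0.83 (standard error 0.65) missed the threshold (adjusted p = 0.433, edgeR's quasi-likelihood test), and without treated library 1 it was -0.45.

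Akr1c12 and Akr1c13 are the closest pair of members in sequence, with Akr1c19 between them on the chromosome. Akr1c12 measured 19.4 and 17.6 CPM in treated cells and 13.2 and 14.2 CPM in controls, a log2 difference of 0.43 (standard error 0.15). Akr1c13 measured 47.0 and 40.0 CPM in treated cells and 33.3 and 32.9 CPM in controls, a log2 difference of 0.39 (standard error 0.13). In both genes the treated libraries lay above the controls without overlap, but neither passed the test (adjusted p = 0.147 and 0.144, edgeR's quasi-likelihood test). Akr1c19 was scarce, with 20 to 37 reads per library. Its levels of 1.09 and 0.898 CPM in treated cells and 0.748 and 0.512 CPM in controls did not overlap and did not pass (log2 difference 0.67, standard error 0.34, adjusted p = 0.26, edgeR's quasi-likelihood test). Akr1c6, a 17-beta-hydroxysteroid dehydrogenase, had 2 reads in control library 2 and none in the other 3 libraries, where a count of 0 allows up to 0.0863 to 0.104 CPM, and it was not tested.

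**Figure D2:**
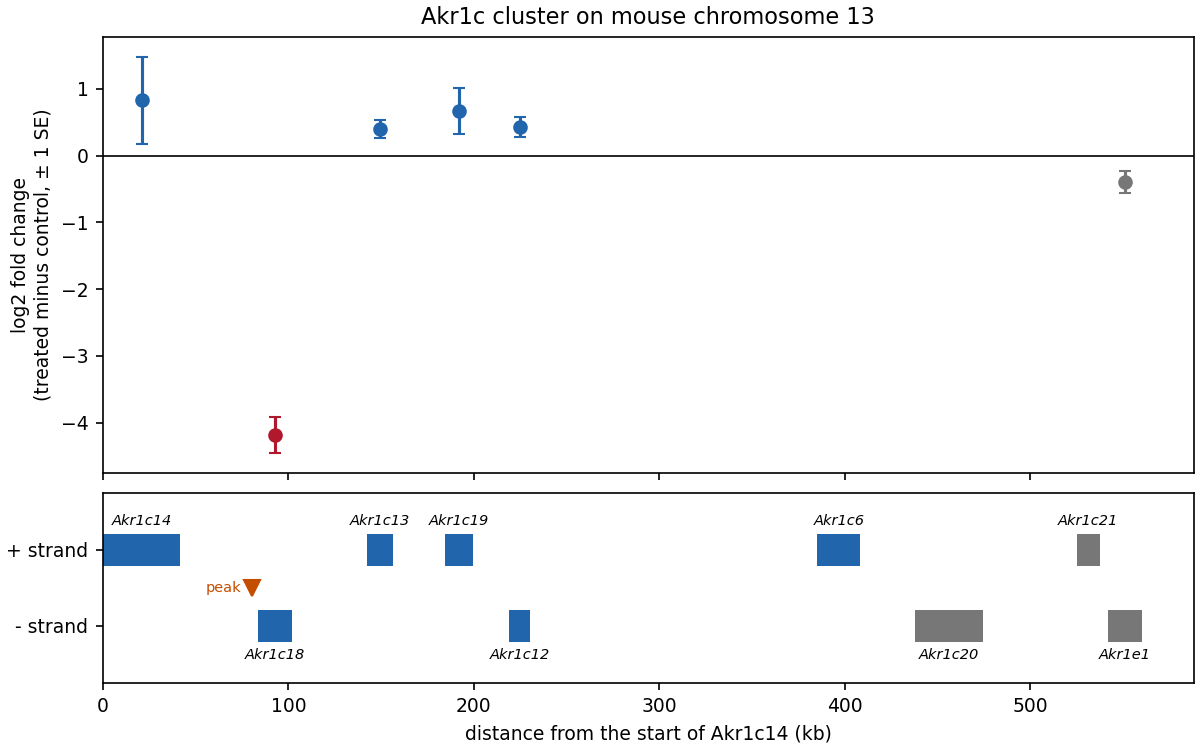
Upper panel, log2 fold change (treated minus control, bars ± 1 standard error) of the tested Akr genes of the cluster at their distance in kb from the start of Akr1c14; lower panel, gene bodies by strand, members in blue and other Akr genes in grey, with the 25 µM FAIRE peak as a triangle. Akr1c18 alone lies near -4, with Akr1c14, Akr1c13, Akr1c19 and Akr1c12 between 0.39 and 0.83 and Akr1e1 at -0.40.

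The genes around the members were looked up as a description of position. Within 200 kb of the Akr1c members lie 8 other genes of the count table, of which 2 were tested and 0 called by edgeR's quasi-likelihood test, with log2 differences of -0.40 and 0.0048. Around the Akr1b members, 4 of 5 other genes were tested and 0 called. At both clusters the number was also 0 at an unadjusted p under 0.05 and by DESeq2. Near Dhrs9, 2 of 5 other genes were tested, both had an unadjusted p under 0.05, and 1 was called by edgeR and by DESeq2. Of all tested genes, edgeR called 4.63% and DESeq2 15.2%. The share of all tested genes at an unadjusted p under 0.05 was not computed, so the unadjusted counts are no result about position. The tested genes, Spc25 and Nostrin, have their nearer ends at -174.2 and -191.1 kb from the start of Dhrs9. Abcb11, G6pc2 and Lrp2 lie closer to Dhrs9 and had too few counts to be tested. Spc25, a kinetochore protein gene, measured 27.9 and 23.3 CPM in treated and 36.6 and 39.7 CPM in control cells, a log2 difference of -0.58 that did not pass (adjusted p = 0.0981, edgeR's quasi-likelihood test). Nostrin, a regulator of endothelial nitric oxide synthase trafficking, measured 2.60 and 2.14 CPM in treated and 23.9 and 23.3 CPM in control cells, and it fell by 3.31 on the log2 scale (adjusted p = 0.0282, edgeR's quasi-likelihood test). Nostrin was singled out after its values were seen.

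The Akr1b genes lie within 119.2 kb on chromosome 6. Akr1b3, the aldose reductase that turns glucose into sorbitol, was the most abundant member, also per length, at 552 and 614 CPM in treated cells and 368 and 389 CPM in controls. Both treated libraries exceeded both controls. The log2 difference was 0.62 (standard error 0.14) with an adjusted p of 0.0798 by edgeR's quasi-likelihood test, against 0.0137 by DESeq2. Akr1b8, an aldo-keto reductase first described as induced by a fibroblast growth factor, measured 85.9 and 101 CPM in treated and 88.0 and 91.7 CPM in control cells. The groups overlapped, and the log2 difference of 0.058 (standard error 0.13, adjusted p = 0.786, edgeR's quasi-likelihood test) was -0.062 without normalization for library composition. Akr1b7, known from vas deferens and adrenal gland, was scarce at 1.24 and 1.17 CPM in treated and 1.06 and 1.02 CPM in control cells. Its log2 difference of 0.21 (standard error 0.26) did not pass (adjusted p = 0.61, edgeR's quasi-likelihood test).

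Of the 8 genes not chosen on their values, 7 were tested and 0 passed edgeR's quasi-likelihood test after adjustment over all 13619 genes. Akr1b3, Akr1c13 and Akr1c12 had an unadjusted p under 0.05. The share of all tested genes with so small a p was not computed, so this count is no result about the members. DESeq2 called 1 of the 7, Akr1b3, against 15.2% of all tested genes. All 7 had a log2 difference above 0, where the median of all tested genes was -0.0047, with Akr1b8 and Akr1c14 changing sign in some alternatives. Akr1b10, a tested gene of the Akr1b cluster that is not a member, was at -0.18 (adjusted p = 0.538, edgeR's quasi-likelihood test). In 5 of the 7, both treated libraries exceeded both controls. That arrangement held in 32.2% of all tested genes, and 1.78% of tested genes were called higher. No tested member other than Dhrs9 and Akr1c18 lay below the controls in both treated libraries.

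**Figure D3:**
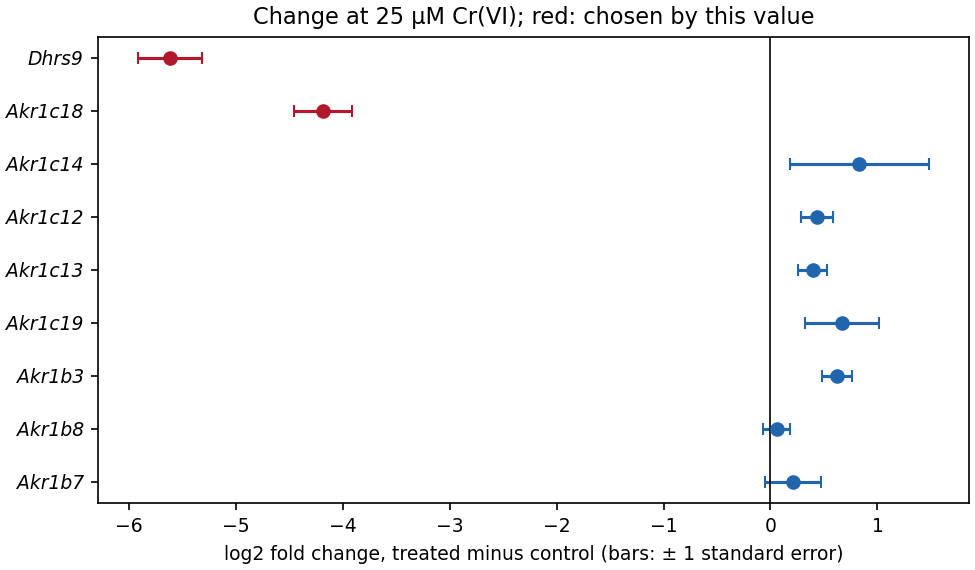
Log2 fold change (treated minus control, x axis) of the 9 tested members, with bars of ± 1 standard error, back-calculated from edgeR's test statistic. Dhrs9 at -5.61 and Akr1c18 at -4.19, in red, were chosen by this value, and the 7 others, in blue, lie between 0.058 and 0.83.

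Per kilobase of the longest curated transcript, the members spanned a wide range in control cells. Akr1b3 stood at 270.0 ± 10.8 CPM per kb (SD, n = 2), followed by Akr1b8 at 67.6, Akr1c13 at 26.9, Akr1c12 at 11.1 and Akr1c14 at 7.73. Akr1c18 at 6.38 ± 0.365 and Dhrs9 at 3.10 ± 0.233 CPM per kb (SD, n = 2) came sixth and seventh of the 10. Akr1b7 at 0.836, Akr1c19 at 0.507 and Akr1c6 at 0.0188 CPM per kb closed the order. No neighbours in this order overlapped between their control libraries. Over the union of its exons Akr1c14 stood at 6.15 CPM per kb in controls, just below Akr1c18. In treated cells Akr1b3, Akr1b8, Akr1c13, Akr1c12 and Akr1c14 kept their ranks, with overlap between Akr1c12 and Akr1c14. Akr1c18 at 0.349 and Dhrs9 at 0.0612 CPM per kb dropped behind Akr1b7 and Akr1c19 to ranks 8 and 9. The place behind Akr1c19 depends on the length used, since over the union of its exons treated Akr1c19 stood at 0.264 CPM per kb, below Akr1c18.

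How far reads of one member can be told from another bears on each of these values, because aldo-keto reductase genes are close copies. The coding sequences of the 6 Akr1c members were 72.0% to 96.2% identical in aligned positions (median 74.0%, 15 pairs). The 3 Akr1b members were 71.0% to 84.9% identical, and Akr1b and Akr1c members 52.9% to 55.9%. Dhrs9 shared 42.2% to 43.9% with the others, the lowest values of the set. Akr1c18 was nearest to Akr1c6, at 76.7%, and Akr1c12 and Akr1c13 were the closest pair, at 96.2%.

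**Figure D4:**
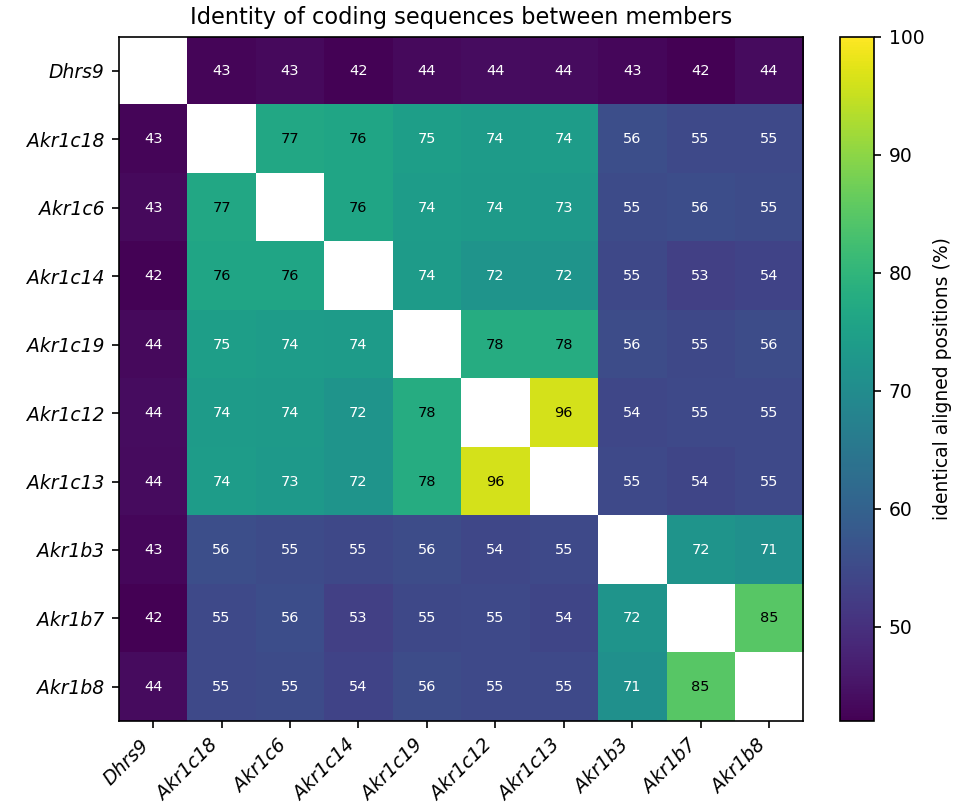
Identical aligned positions in percent between the coding sequences of each pair of the 10 members, rows and columns ordered by family. The Akr1c block lies at 72.0% to 96.2%, Akr1c12 and Akr1c13 are the closest pair, and Dhrs9 stays at or below 43.9% with every other member.

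The stretch of 60 coding bases in which the Akr1c members differ most from Akr1c18 is shown to make the distance between paralogs visible. It covers coding bases 260 to 319, counted from the start codon, from the mm10 genome on the strand of the gene, 5′ to 3′. Capitals mark bases unlike Akr1c18.
Akr1c18 (chr13:4144340-4144399, minus strand): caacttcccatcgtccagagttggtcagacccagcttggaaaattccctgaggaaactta
Akr1c6 (chr13:4438497-4438556, plus strand): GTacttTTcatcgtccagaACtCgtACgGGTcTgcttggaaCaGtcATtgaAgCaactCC
Akr1c12 (chr13:4275774-4275833, minus strand): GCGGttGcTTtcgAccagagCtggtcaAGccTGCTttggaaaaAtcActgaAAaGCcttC
Akr1c13 (chr13:4194684-4194743, plus strand): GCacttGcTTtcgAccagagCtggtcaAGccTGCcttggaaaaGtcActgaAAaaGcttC
Akr1c14 (chr13:4065332-4065391, plus strand): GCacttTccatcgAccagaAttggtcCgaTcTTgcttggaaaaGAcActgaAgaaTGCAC
Akr1c19 (chr13:4237043-4237102, plus strand): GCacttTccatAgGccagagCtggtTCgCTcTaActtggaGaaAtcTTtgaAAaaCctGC
Over this stretch 18 to 22 of the 60 bases differed from Akr1c18, while in the most alike stretch, coding bases 448 to 507, the number was 6 to 10.

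Reads of about 50 bases were used, so each transcript was split into 50 bp stretches and those found in transcripts of other genes were counted. For Akr1c18 the share was 0.609%, all with Akr1cl, and it was 2.78% against the other members when 2 mismatches were allowed. For Dhrs9 it was 4.41%, all in an antisense long noncoding gene, Gm36393, whose exons overlap 170 bases of Dhrs9 exons. That gene is on the opposite strand and is not in the count table, and whether counting used the strand is not stated. Outside their own loci, no 50 bp stretch of either transcript was found in the genome. Akr1c14 and Akr1c19 shared no stretch with another transcript.

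Akr1c12 and Akr1c13 shared 30.2% and 29.3% of their stretches with other genes, nearly all with each other, and 57.4% with 2 mismatches allowed. Their promoters were 95.1% identical over 247 aligned positions. The counts of these 2 genes are therefore uncertain as single values. Akr1b7 and Akr1b8 shared 2.59% and 2.42%, mostly with Akr1b10 and a pseudogene, and 11.6% and 10.9% with other members at up to 2 mismatches. Akr1c6 shared 2.14%, with Akr1c20.

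Akr1b3 could not be separated from its processed copies. Of its stretches 85.2% occurred elsewhere, mostly in the pseudogenes Gm6644 (chr1:55443695-55445063), Gm6736 and Gm12138. These copies held 81.5%, 73.2% and 65.6% of the stretches exactly, and 96.5%, 96.3% and 93.8% with up to 2 mismatches. In the count table Gm6644 had 18682, 17788, 12794 and 15223 counts in treated libraries 1 and 2 and controls 1 and 2. Akr1b3 had 18683, 17790, 12795 and 15223 counts in the same libraries. The values differ by at most 2 reads, so they describe one pool of reads, and which locus was transcribed cannot be read from the counts.

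The genes most like Dhrs9 and Akr1c18 over the 4 libraries were named by the smallest Euclidean distance between log2 CPM values, each taken relative to its control mean, among tested genes with an average of at least 2 log2 CPM. Scarcer genes were not searched. The measure used the same 4 libraries that picked Dhrs9 and Akr1c18, so other genes with large falls were bound to come out nearest. Those found, Nxf3, Col5a2, Sprr2h and Ifi44, ranked 2, 3, 4 and 6 among the falls. Nxf3, of the mRNA export factor family, was nearest to Dhrs9 at a distance of 0.405, followed by Col5a2 at 1.601 and Ifi44 at 1.786. For Akr1c18 the nearest were Col5a2 (a collagen V chain) at 0.313, Sprr2h at 0.322 and the interferon-induced gene Ifi44 at 0.56. Nxf3 measured 2.13 and 2.07 CPM in treated and 71.3 and 72.9 CPM in control cells, from a control level well above that of Dhrs9. Col5a2 measured 1.06 and 1.10 CPM in treated and 20.2 and 20.5 CPM in control cells.

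Retinoid genes around Dhrs9 moved in both directions. Of 47 genes of retinoid metabolism in the count table, 29 were tested, 3 fell and 1 rose by edgeR's quasi-likelihood test, a share of 13.8% against 4.63% of all tested genes. Their median log2 difference was 0.24, against -0.0047 over all tested genes. This list and the other gene lists were drawn up with earlier results of these data known, so their shares are a description with no test. Adh1, an alcohol dehydrogenase that also oxidizes retinol, measured 6.53 and 5.04 CPM in treated and 27.8 and 29.7 CPM in control cells and fell by 2.31 on the log2 scale (adjusted p = 0.0282, edgeR). Adh7, of the same family, fell by 0.93 (adjusted p = 0.0408, edgeR). Rdh10, a retinol dehydrogenase of the short-chain family like Dhrs9, measured 19.6 and 21.9 CPM in treated and 39.1 and 37.3 CPM in control cells and fell by 0.88 (adjusted p = 0.0459, edgeR).

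The 4 genes called in this list hold 3 enzymes that can act on retinol and 1 carrier. Rbp4, the plasma carrier of retinol made by liver cells, measured 492 and 555 CPM in treated and 223 and 233 CPM in control cells and rose by 1.20 (adjusted p = 0.0327, edgeR's quasi-likelihood test). Crabp2, an intracellular retinoic acid carrier chosen here after its values were seen, had the largest log2 difference, 4.98 (standard error 1.26). It did not pass (adjusted p = 0.0934, edgeR), with treated libraries at 0.768 and 5.49 CPM and controls at 0.115 and 0.0767 CPM.

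**Figure D5:**
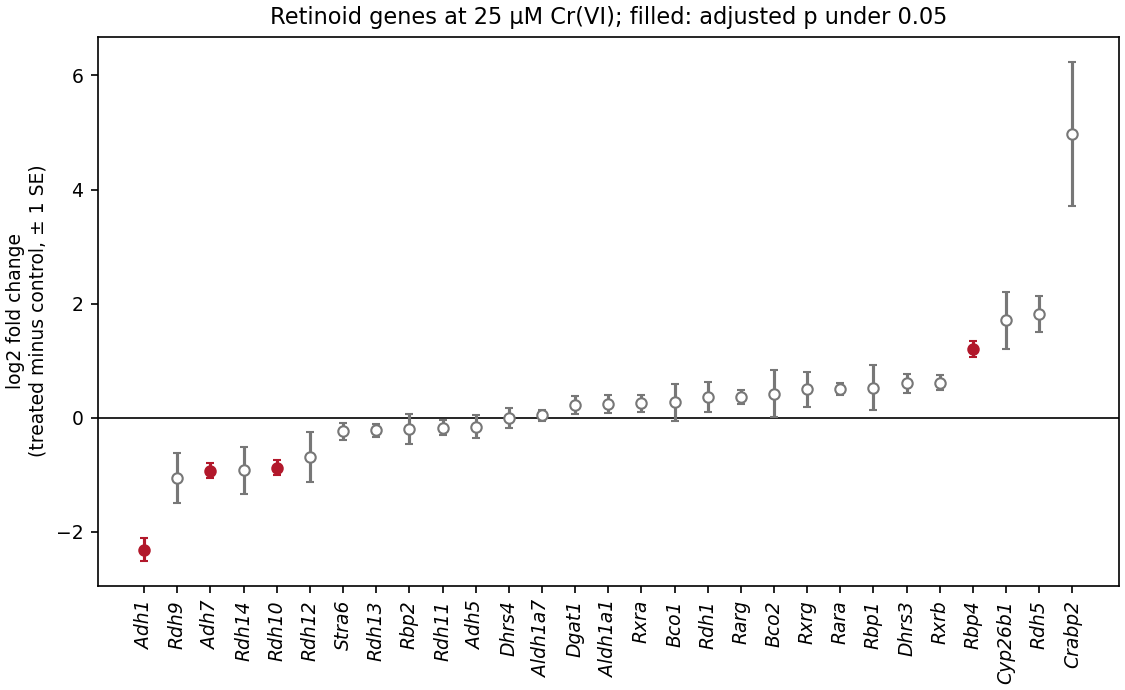
Log2 fold change (treated minus control, y axis, bars ± 1 standard error) of the 29 tested genes of retinoid metabolism, Dhrs9 not included, in rising order. Filled points mark the 4 called genes, Adh1, Adh7 and Rdh10 below 0 and Rbp4 above it; Crabp2 lies highest with a wide error.

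Of 31 other aldo-keto reductase and short-chain dehydrogenase genes, 20 were tested and 0 called by edgeR's quasi-likelihood test, against 4.63% of all tested genes. DESeq2 called 2 of the 20, against 15.2% of all tested genes. At an unadjusted p under 0.05 there were 5, which is no result about the list because the share of all tested genes was not computed. The 20 tested genes of the list had a median log2 difference of -0.23. Akr1a1, the general aldehyde reductase and an abundant gene of this list, measured 588 and 752 CPM in treated and 563 and 582 CPM in control cells, with a log2 difference of 0.23 (adjusted p = 0.44, edgeR).

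Of 36 genes of steroid metabolism in the count table, 17 were tested and 3 were called, all lower, a share of 17.6%. Of all tested genes, 4.63% were called in either direction and 2.85% lower. With upper-quartile normalization or with none, 2 were called. The median log2 difference was -0.54. Hsd17b7 fell by 1.38 (48.7 and 41.7 CPM against 121 and 115 CPM, adjusted p = 0.0303, edgeR's quasi-likelihood test). Hsd17b12 fell by 1.18 (adjusted p = 0.0391, edgeR) and Srd5a1, a steroid 5-alpha-reductase, by 1.08 (adjusted p = 0.0495, edgeR). Hsd17b7 also serves cholesterol synthesis and Hsd17b12 the elongation of fatty acids, so these members do not only handle steroid hormones.

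Of 27 genes of carbonyl and aldehyde detoxification, 25 were tested, 2 rose and 1 fell, a share of 12% against 4.63% of all tested genes, with a median log2 difference of 0.12. Sord, the sorbitol dehydrogenase that follows aldose reductase in the polyol pathway, measured 489 and 387 CPM in treated and 179 and 179 CPM in control cells and rose by 1.29 (adjusted p = 0.0381, edgeR's quasi-likelihood test). Gsta4, which conjugates lipid-derived aldehydes to glutathione, rose by 0.96 (adjusted p = 0.0391, edgeR). Aldh1l1, a folate enzyme by function, measured 0.266 and 0.242 CPM in treated and 5.44 and 4.81 CPM in control cells and fell by 4.31 (adjusted p = 0.0282, edgeR).

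Some liver markers rose in treated cells as well. The summed level of the 18 hepatocyte and hepatoma markers was 7530 and 8810 CPM in treated and 4270 and 4400 CPM in control cells. Of 14 tested, 4 rose by edgeR's quasi-likelihood test, a share of 28.6%. Of all tested genes, 4.63% were called in either direction and 1.78% higher. Alb rose by 1.96, Ttr by 2.46, Fgb by 2.44 and Apob by 4.53 on the log2 scale (adjusted p = 0.0317, 0.0332, 0.0282 and 0.0282, edgeR). The summed level of the 15 markers of other cell types was 434 and 561 CPM in treated and 397 and 402 CPM in control cells. Of 7 tested, 1 was called, a share of 14.3% against the same 4.63% and 1.78%. It was the endothelial Pecam1, which rose by 2.03 (adjusted p = 0.0438, edgeR). Whether these shifts had a part in the values of Dhrs9, Akr1c18 and their relatives was not tested.

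FAIRE-seq peaks near the members came from few regions. Each deposited list gives regions more open in 1 treated than in 1 control library, so a peak has no replicate check, and its score is 10 times the negative log10 of the p-value of MACS. No peak centre of either list lay inside a member gene. In the 25 µM list, 6 of the 10 members had a peak centre within 100 kb of a transcription start, against 29.1% of all annotated genes. The 6 rested on 2 peaks, shared by neighbouring members. In the 0.5 µM list, 1 member had one, Dhrs9, against 9.52% of all annotated genes.

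The 25 µM peak nearest to Akr1c18 (score 57.61) is printed because it is the only one of the 2945 peaks of that list analysed here centred within the Akr1c cluster. It lies 21.3 kb from the start of Akr1c18 and 3.30 kb beyond its 3′ end, 61.8 kb upstream of Akr1c13 and 69.7 kb from the start of Akr1c14. The sequence is from mm10, with letters that match TGANTCA in capitals.
Peak near Akr1c18 (chr13:4129261-4129377, plus strand): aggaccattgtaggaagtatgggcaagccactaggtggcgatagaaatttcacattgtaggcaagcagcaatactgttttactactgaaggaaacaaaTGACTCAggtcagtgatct
The AP-1 letters were present in 72 of 686 peaks of the list that were 107 to 127 bp wide, a share of 10.5%. The paper also reports motifs of CTCF and its paralog BORIS in regions opened by the acute treatment. Letters of those motifs were not searched here. All 50 bp stretches of this peak were unique in the genome.

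The other 25 µM peak (chr6:34323300-34323441, score 86.44) lay 5.88 kb upstream of Akr1b3, 30.8 kb from Akr1b8 and 89.0 kb from Akr1b7, and held no AP-1 letters. Akr1c6, Akr1c12, Akr1c19 and Dhrs9 had no 25 µM peak within 100 kb, and for Dhrs9 the nearest was 238 kb away. The 0.5 µM peak near Dhrs9 (chr2:69355187-69355880, score 133.05) lay 24.9 kb upstream of its start. Only 20.8% of its 50 bp stretches were unique in the genome, and it held no AP-1 letters. Since no RNA-seq of the 0.5 µM culture was analysed here, this peak stands beside no expression value of its own condition.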

How the data were processed

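RNA-seq read counts per Entrez gene were deposited by the authors, who aligned reads to mm10 with TopHat; the counting tool, the annotation and the use of strand are not given in the sources used here. For FAIRE-seq, the authors deposited MACS peaks with a score, from reads aligned with BWA and 1 treated and 1 control library each, with no read counts per peak. The members and gene lists were chosen with earlier results of these data known. Symbols came from RefSeq for 23305 of 23403 identifiers. Counts were tested with edgeR 4.0.16 (quasi-likelihood, TMM, filterByExpr, two-sided, Benjamini-Hochberg over 13619 genes, threshold 0.05) and, as an alternative, DESeq2 1.42.0. Scaling factors by TMM were 1.03 and 0.897 (treated) and 1.04 for each control, and the biological coefficient of variation was 0.193. CPM were scaled by TMM. Each standard error is the absolute log2 difference divided by the square root of edgeR's F statistic. It is no separate estimate of precision and may be too small where reads are few. Floors cover counting error only. Other settings were normalization, filter, replicate block and leaving out each library. All 10 members were named, with called genes of each list (up to 6 per direction), the 3 genes most like Dhrs9 and like Akr1c18, genes overlapping a member and the nearest peaks. Distances ran from a peak's centre to the nearest RefSeq start. Levels per length used the longest curated transcript. Alignments used Biopython 1.88. Protein sequences and the Akr1b3 promoter were not analysed here. Sequences are RefSeq's, build mm10.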

Additional observations from a re-analysis of the deposited data

How the results depend on the processing

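Dhrs9 and Akr1c18 stayed lower in every fit, from -5.94 to -5.38 and from -4.42 to -3.97 on the log2 scale; both ends came from leaving out a library (Dhrs9 was at -5.94 without treated library 1). Leaving out 1 library at a time gave log2 differences of 0.36 to 0.50 for Akr1c12, 0.28 to 0.50 for Akr1c13, -0.45 to 1.501 for Akr1c14, 0.39 to 0.94 for Akr1c19, 0.54 to 0.71 for Akr1b3 and -0.068 to 0.18 for Akr1b8. Akr1c14 turned negative without treated library 1, and Akr1b8 without treated library 2 and, at -0.062, without normalization, which shifted the median of all genes by -0.11. Without either treated library, the lone treated library is assumed to vary like the controls, whose spread is small. Calls from such fits are therefore not read for the members. Akr1b3 passed with DESeq2 at 0.64 (adjusted p = 0.0137), the 1 member called there.

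Leaving out 1 library moved the calls to between 0 and 5 for the members, 2 and 22 for retinoid genes, 0 and 16 for other reductases and dehydrogenases, 1 and 18 for steroid genes, 1 and 21 for carbonyl genes and 287 and 10995 for all genes, with the low ends without a control library and the high ends without a treated one. DESeq2 called 7 retinoid, 2 other reductase and 5 steroid genes and 2073 in all. With the replicate block the counts were 10, 2, 7 and 2969; same-numbered libraries deviated together only weakly (correlation 0.0909 across genes), and with 2 pairs the numbers were not taken to pair the libraries. Without normalization 1 carbonyl gene was called. The cause of these shifts was not tested.

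Within 10 kb of a start 0 members had a 0.5 µM peak and 1 a 25 µM peak, against 1.7% and 4.57% of all annotated genes. Within 50 kb the numbers were 1 and 3, against 5.14% and 17.2%. At a score of at least 100, within 100 kb, 1 member had a 0.5 µM peak and 0 a 25 µM peak. The shares were then 0.293% and 0.492% of genes on chromosomes with such a peak. Shares of shared sequence moved with the length compared, for Akr1c12 from 39.2% at 36 bp to 11.8% at 100 bp and for Akr1b3 from 88.7% to 72.2%. Over all exons Akr1c19 had 0.167 CPM per kb, and the same value came with its longest predicted transcript, a length chosen after seeing the data.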
